A study of Homo sapiens with 11 samples.

Results

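The genes described here encode surface molecules through which cells bind one another or the matrix. They are ICAM1, ICAM2, ICAM3, ICAM5, VCAM1, ALCAM, MCAM, L1CAM, CD44 and CD47, 10 of the 28152 gene symbols in the deposited tables. The 10 were chosen by symbol with the evexomostat to vehicle difference in these same libraries already known, so their values on it are a description. Calls made over all genes are listed once for them below and are no test of these genes. RNA was sequenced from 11 xenograft tumours, 1 library per tumour, 6 from mice given vehicle and 5 from mice given evexomostat. Evexomostat (also SDX-7320) is a polymer-bound inhibitor of methionine aminopeptidase 2, an enzyme that removes the first methionine from new proteins. All mice were female athymic nude mice, which lack thymus-derived T cells and keep other leukocytes, and all carried a 90-day pellet of 0.72 mg estradiol. By the labels, BT-474 breast carcinoma cells were placed in the mammary fat pad. Evexomostat was injected under the skin at 12 mpk every 4 days, vehicle animals received mannitol in water, and tumours were taken on day 33. The labels used here give no age. Nothing in them states whether tumours shared a cage, cell passage or day, so the spread between libraries is that between these tumours.

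Adhesion molecules of the immunoglobulin superfamily, the ICAM proteins, VCAM1, ALCAM, MCAM and L1CAM among them, carry extracellular immunoglobulin domains that bind integrins, other immunoglobulin-type receptors or matrix proteins. ICAM1 is present at a low level on many epithelial and endothelial cells and is induced by inflammatory cytokines such as TNF and interleukin 1 through NF-kB, as VCAM1 is. CD44 is a receptor for the matrix polysaccharide hyaluronan, and CD47 signals to macrophages through SIRPA that a cell should not be engulfed.

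Library totals ran from 22808033 to 39249329 counts. Levels are in CPM, read counts brought to a common library size after TMM scaling, a correction for differences in composition between libraries. RPM is named where the authors' scaling to the plain library total was used. Vehicle replicate 001 stood apart: its 100 highest genes took 23.9% of its counts against 16.2% to 17.9% in the others, and its TMM factor was 0.86, the lowest of the 11. Among the markers of the labelled line, the luminal genes ESR1, PGR, CDH1 and KRT19 averaged 0.285, 0.0655, 0.456 and 0.803 RPM, while VIM, an intermediate filament of mesenchymal and some basal-type cells, averaged 1190 RPM. ERBB2, the gene amplified in BT-474, averaged 53.7 RPM, and its amplicon neighbour GRB7 averaged 0.303 RPM. In the same 2 lists, KRT8, KRT18 and XBP1 averaged 332, 149 and 130 RPM, and STARD3 and MIEN1 averaged 43.2 and 27.6 RPM. The luminal genes GATA3, EPCAM and FOXA1 averaged 6.5, 3.03 and 1.05 RPM. The 10 basal and mesenchymal markers ran from 6.18 RPM for KRT14 to VIM, with FN1 and KRT17 at 491 and 457 RPM. The luminal markers were thus mixed: the hormone receptors and E-cadherin (CDH1) were near 0 and the other luminal genes were not uniformly so. The ERBB2 amplicon genes were mixed too, with GRB7 and TCAP at 0.303 and 0.296 RPM and ERBB2 the highest at 53.7 RPM. Whether the tumours match the labelled line was not tested. The xenografts are named below by their treatment. How reads from the mouse host were handled is not given in the sources used here, so a human symbol can hold host reads. For the same reason, the sums of cell type markers given below do not measure the host cells in a tumour. Over all 16653 genes tested, 101 passed an adjusted p of 0.05 (edgeR's quasi-likelihood test, Benjamini-Hochberg), which is 0.606%. Of these, 72 were lower (0.432%) and 29 were higher (0.174%) with evexomostat. All 10 adhesion genes passed the count filter.

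ICAM1 is the ligand of the leukocyte integrins LFA-1 and Mac-1. With vehicle it ranged from 115.3 to 252.2 CPM with a median of 242.1 CPM. With evexomostat the libraries held 78.21, 80.16, 104.5, 90.59 and 93.08 CPM in replicates 002, 003, 004, 005 and 007. Every evexomostat library lay below every vehicle library, and the lowest vehicle value, in replicate 001, came nearest. The means were 212.8 ± 56.21 CPM (SD, n = 6) and 89.3 ± 10.63 CPM (SD, n = 5), or 2.38-fold lower. The log2 fold change was -1.25 ± 0.20 (SE). On the authors' RPM scale the groups overlapped, since vehicle replicate 001 held 99.16 RPM and evexomostat replicate 004 held 108.0 RPM. Without vehicle replicate 001, the vehicle mean was 232.3 ± 33.16 CPM (SD, n = 5). The log2 fold change was between -1.37 and -1.20 whichever library was left out. In bulk RNA, fewer cells of a type and less RNA per cell cannot be told apart.

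The RefSeq promoter windows of ICAM1 and VCAM1 are shown because these are the 2 members with the lowest values relative to vehicle and because both genes are known NF-kB targets. The stretches are the 250 bases before the annotated start, 5′ to 3′ on the plus strand of GRCh38.p14, at chr19:10270870-10271119 and chr1:100719492-100719741. Capitals mark each match to the kappa B type motif GGNNNTTCC or, on the other strand, GGAANNNCC.
ICAM1: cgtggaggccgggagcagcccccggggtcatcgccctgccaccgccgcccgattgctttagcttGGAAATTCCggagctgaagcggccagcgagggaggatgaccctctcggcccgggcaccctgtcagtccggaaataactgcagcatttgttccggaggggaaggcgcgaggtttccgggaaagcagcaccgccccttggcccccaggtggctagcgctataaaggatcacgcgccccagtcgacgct
VCAM1: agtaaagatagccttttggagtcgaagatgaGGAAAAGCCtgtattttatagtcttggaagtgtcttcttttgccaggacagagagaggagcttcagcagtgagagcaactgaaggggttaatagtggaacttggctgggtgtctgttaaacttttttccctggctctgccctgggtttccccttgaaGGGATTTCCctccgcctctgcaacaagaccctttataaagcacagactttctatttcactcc

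The ICAM1 match lies at -186 to -178, counted back from the base before the start. The VCAM1 matches lie at -219 to -211 and at -62 to -54. ICAM1 also holds the TATA box motif TATAAA at -30 to -25. VCAM1 holds TATAAA at -29 to -24, overlapping a match on the other strand at -31 to -26. A further match on the other strand lies at -205 to -200. Among the 9 members with a RefSeq window, 4 held the kappa B type motif, the other two being MCAM and ICAM3, the latter in 1 of its windows. The windows of ICAM5, ALCAM, L1CAM, CD44 and CD47 held none. Both strands were searched over windows of 300 bases, and 20.1% of all 35116 RefSeq windows held GGNNNTTCC and 11.5% held TATAAA. These shares are per window, while members were counted per gene, and ICAM3 and L1CAM have more than 1 window. The member count and the shares are thus in unlike units. Such matches describe letters in the sequence, and binding was not measured.

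The other ICAM proteins bind leukocyte integrins too. ICAM5, or telencephalin, is known from neurons of the forebrain. It ranged from 4.945 to 27.2 CPM with vehicle, with a median of 14.46 CPM. In evexomostat libraries it was at 6.827, 7.817, 7.427, 7.45 and 9.143 CPM. The groups overlapped: vehicle replicate 006 lay among the evexomostat libraries and vehicle replicate 001 below all of them. The log2 fold change was -0.87 ± 0.35 (SE), from 14.16 ± 7.866 CPM (SD, n = 6) to 7.733 ± 0.8645 CPM (SD, n = 5). ICAM3, a ligand known from resting leukocytes, was at 10.73 ± 1.585 CPM (SD, n = 6) with vehicle and 10.66 ± 1.474 CPM (SD, n = 5) with evexomostat, and the groups overlapped. ICAM2, which is known from endothelium and platelets, was near the limit of detection at 7 to 34 counts per library. Its means of 0.6749 ± 0.3446 CPM (SD, n = 6) and 0.4133 ± 0.1183 CPM (SD, n = 5) gave a log2 fold change of -0.72 ± 0.40 (SE).

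ICAM1, ICAM4 and ICAM5 are neighbours on chromosome 19, and ICAM3 lies a few genes further on. ICAM4, known from red cells, is not among the 10 and was chosen for mention after its values were seen. It held 26 to 49 counts in vehicle libraries and 9 to 18 in evexomostat libraries, and its log2 fold change was -1.36 ± 0.35 (SE), not past the threshold. Overlapping transcripts could add reads to these genes, since the use of strand in counting is not given in the sources used here. In GENCODE 29, on a later build than the one the submitters name, 25.1% of the 3252 exon bases of ICAM1 lie opposite an antisense transcript. The share is 61.9% of 2231 bases for ICAM3 and 42.6% of 1533 bases for ICAM2. For ICAM4 it is 100% of 1427 bases, opposite the same transcript as for ICAM1.

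**Figure D1:**
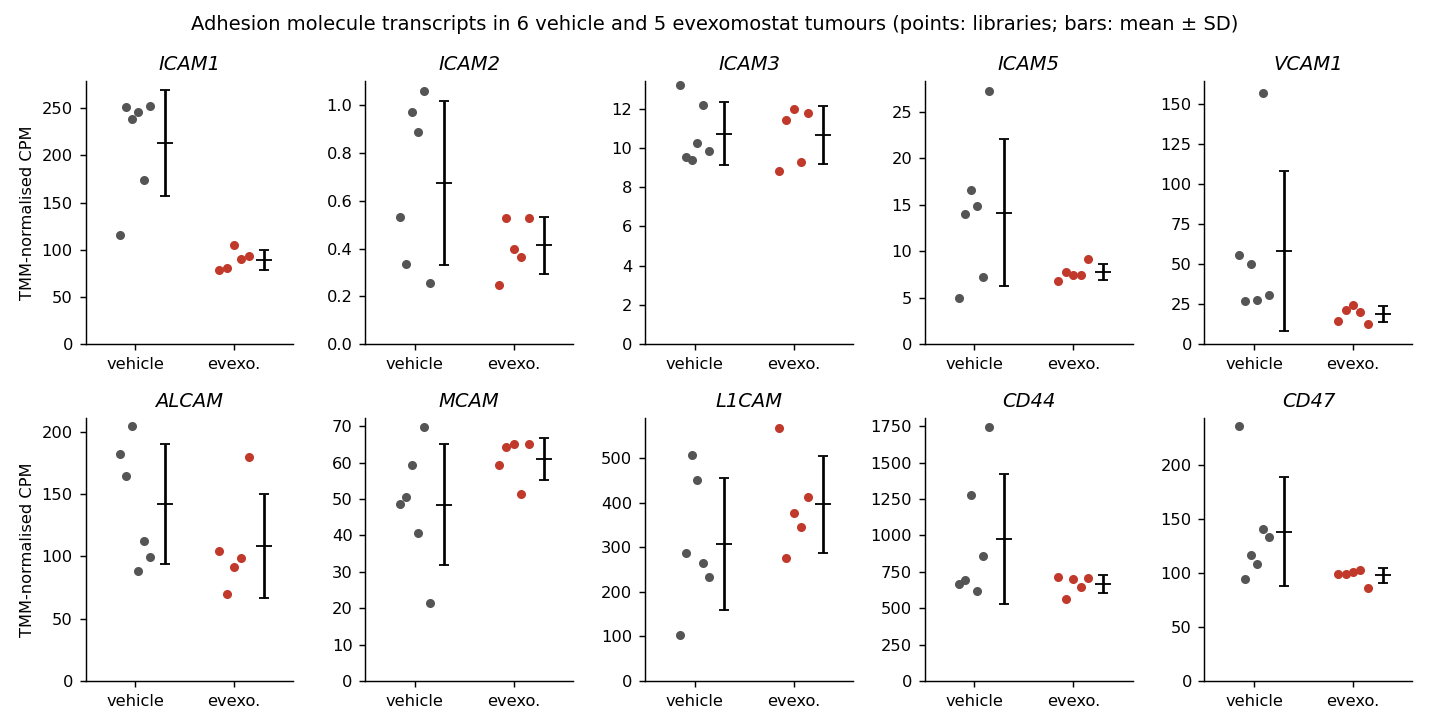
TMM-normalised CPM (linear axes from 0) of the 10 adhesion genes, with 1 point per library, vehicle in grey and evexomostat in red, and bars at the mean ± SD. ICAM1 and VCAM1 are the 2 genes whose groups do not overlap, and VCAM1 in vehicle replicate 006 stands at 156.8 CPM, far above the other libraries.

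VCAM1 is the ligand of the integrin made of the ITGA4 and ITGB1 chains and is best known from activated endothelium. With vehicle it ranged from 26.97 to 156.8 CPM, with a median of 40.44 CPM. The evexomostat libraries held 14.28, 21.55, 24.38, 20.06 and 12.53 CPM. The groups did not overlap in CPM or in RPM, where the lowest vehicle library held 26.62 and the highest evexomostat library 25.21. The means were 57.98 ± 49.89 CPM (SD, n = 6) and 18.56 ± 4.995 CPM (SD, n = 5), and the log2 fold change was -1.64 ± 0.44 (SE). This was the lowest of the 10. A single library carried much of its size: without vehicle replicate 006 the log2 fold change was -1.04. The same library held the highest LAMA4, at 90.1 CPM against 12.1 to 38.1 CPM in the other vehicle libraries, and the highest summed endothelial markers of the vehicle group. Those markers summed to 13.5 to 27.3 RPM with vehicle and 16.5 to 22.4 RPM with evexomostat, 5 of the 10 averaged under 1 RPM, and CDH5 ran from 0 to 0.0575 RPM. Their part in the VCAM1 difference was not tested. In the authors' deposited table VCAM1 had a log2 fold change of -1.57 with an adjusted p of 0.0201, and ICAM1 had -1.17 with 0.00022. That table holds 268 genes with an adjusted p under 0.05, and ICAM1 and VCAM1 were the 2 members among them.

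Across all genes tested, 273 (1.64%) had every evexomostat library below every vehicle library in CPM, and 222 (1.33%) had the reverse. Among the 10 members, ICAM1 and VCAM1 had the first pattern and none the second. Of the 10 log2 fold changes, 8 were below 0 and 2 above, beside 55.4% below 0 over all genes tested. Their median was -0.53, beside a median of -0.04 over all genes tested. The plot of these fold changes with their errors shows the order from VCAM1 to L1CAM. Of the 10, ICAM1 is among the 101 genes called by edgeR, beside 0.606% of all genes. It is not called when evexomostat replicate 002, 005 or 007 is left out or with limma-trend on log2(RPM + 0.1). VCAM1 is called with DESeq2 and with limma-voom with quality weights, and ICAM5 without vehicle replicate 001 and in a fit of the 8 libraries whose replicate numbers occur in both groups, without a block. Since the members were chosen on this contrast, nothing is read from these counts and calls.

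**Figure D2:**
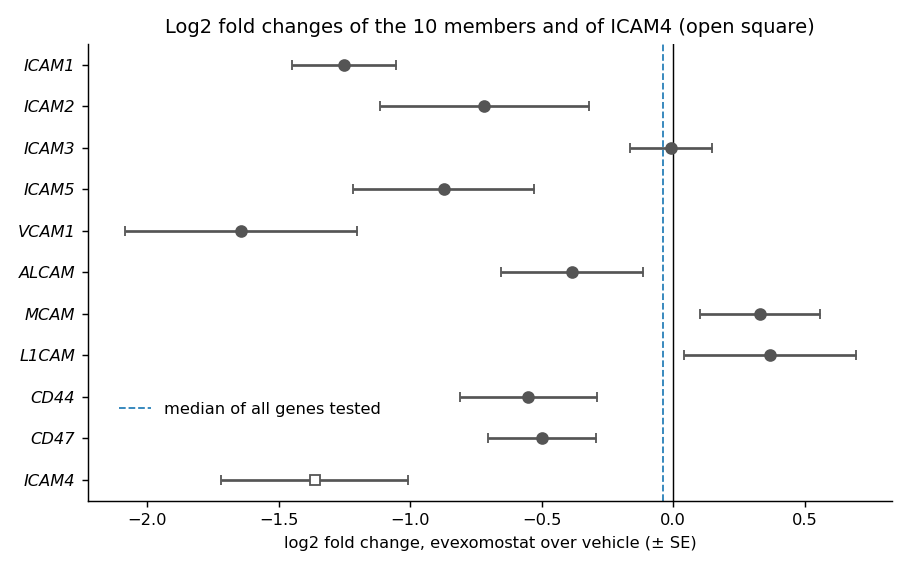
Log2 fold change of evexomostat over vehicle with its standard error for the 10 adhesion genes and ICAM4, with the median of all genes tested as a dashed line. The error bars of VCAM1, at -1.64 ± 0.44, are more than double the width of those of ICAM1, at -1.25 ± 0.20, and MCAM and L1CAM are the 2 genes above 0.

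ALCAM binds CD6 on lymphocytes and itself on neighbouring cells. It ranged from 87.84 to 204.2 CPM with vehicle, with a median of 138.4 CPM. With evexomostat it held 104.1, 69.34, 91.23, 98.24 and 179.2 CPM, with replicate 003 alone below the vehicle range. Its log2 fold change was -0.39 ± 0.27 (SE). MCAM, a laminin-binding molecule of endothelium, pericytes and melanoma, ranged from 21.54 to 69.92 CPM with vehicle. With evexomostat it held 59.24, 64.28, 65, 51.39 and 65 CPM, inside the vehicle range, and the log2 fold change was 0.33 ± 0.23 (SE). L1CAM, a neuronal adhesion molecule that many carcinomas express, ranged from 102.8 to 506.1 CPM with vehicle. With evexomostat it held 567.5, 276.1, 378, 345.8 and 412.8 CPM, and only replicate 002 exceeded the vehicle range. Its log2 fold change was 0.37 ± 0.33 (SE). The neural marker list summed to 83.8 to 177 RPM with vehicle and 167 to 258 RPM with evexomostat, mostly TUBB3 at a mean of 145 RPM, and its part in the L1CAM values was not tested.

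CD44 had the highest level of the 10. It ranged from 614.7 to 1748 CPM with vehicle, with a median of 776.4 CPM. The 5 evexomostat libraries held 715, 564.1, 700.5, 647.2 and 706.2 CPM. The groups overlapped, evexomostat replicate 003 was the lowest of all, and vehicle replicates 004 and 007 were the highest. From a vehicle mean of 976.7 ± 448.3 CPM (SD, n = 6), CD44 had a log2 fold change of -0.55 ± 0.26 (SE). CD47 ranged from 94.47 to 236.8 CPM with vehicle, with a median of 125.3 CPM. With evexomostat it held 99.53, 99.68, 101.4, 103.3 and 86.39 CPM, a narrow band that the lowest vehicle library entered. Its log2 fold change was -0.50 ± 0.21 (SE), and without vehicle replicate 001 the vehicle mean moved from 138.7 ± 50.94 CPM (SD, n = 6) to 119.0 ± 18.79 CPM (SD, n = 5).

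The vehicle tumours varied more among themselves than the evexomostat tumours in 9 of the 10 genes, all but ALCAM, and in 80.8% of all genes tested. The coefficient of variation of CD47 was 36.7% with vehicle and 6.83% with evexomostat. For CD44 it was 45.9% and 9.47%, for ICAM5 55.6% and 11.2%, and for ICAM1 26.4% and 11.9%. The medians over all genes tested were 28.8% and 16%, a difference in the same direction. Vehicle replicate 001 added to some of these spreads. Without it the vehicle SD went from 56.21 to 33.16 CPM for ICAM1 and from 50.94 to 18.79 CPM for CD47. For ICAM5 it went from 7.866 to 7.203 CPM, and for CD44 from 448.3 to 471.9 CPM.

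Levels of different genes were compared per kilobase of exon, as CPM per kb. With vehicle, CD44 led at 160, followed by ICAM1 at 65.4 and L1CAM at 59.7. ALCAM at 29.9, CD47 at 26.3, VCAM1 at 18.7 and MCAM at 14.6 formed a middle group, and ICAM3 at 4.81, ICAM5 at 4.72 and ICAM2 at 0.44 were low. CD44 exceeded ICAM1 in 6 of 6 vehicle libraries without overlap of their ranges. The steps from MCAM to ICAM3 and from ICAM5 to ICAM2 also had no overlap. All other neighbours in the vehicle order overlapped, ICAM1 and L1CAM among them, with ICAM1 the higher in 4 of 6 libraries. With evexomostat the order began with CD44 at 109, L1CAM at 77.0 and ICAM1 at 27.5 CPM per kb. L1CAM exceeded ICAM1 in 5 of 5 evexomostat libraries without overlap, the reverse of the order of their vehicle means. VCAM1, at 5.99, was below MCAM, at 18.4, in 5 of 5 libraries without overlap. The steps from ICAM3 to ICAM5 and from ICAM5 to ICAM2 had no overlap either, and the remaining neighbours overlapped.

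The fold changes were recomputed under 22 other settings of scaling, test, filter and libraries. ICAM1 ran from -1.44 to -1.10, VCAM1 from -1.79 to -0.79 and ICAM5 from -1.20 to -0.54. These refits share the same libraries and are not independent of each other. Single libraries moved several of the smaller values by over 1.5 times. The CD44 log2 fold change was -0.30 without vehicle replicate 007, and the CD47 log2 fold change was -0.27 without vehicle replicate 001. The ALCAM log2 fold change was -0.25 without vehicle replicate 004 and -0.64 without evexomostat replicate 007. The MCAM log2 fold change was 0.18 without vehicle replicate 007. The L1CAM log2 fold change was 0.19 without vehicle replicate 001, 0.57 without vehicle replicate 004 and 0.20 without evexomostat replicate 002.

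**Figure D3:**
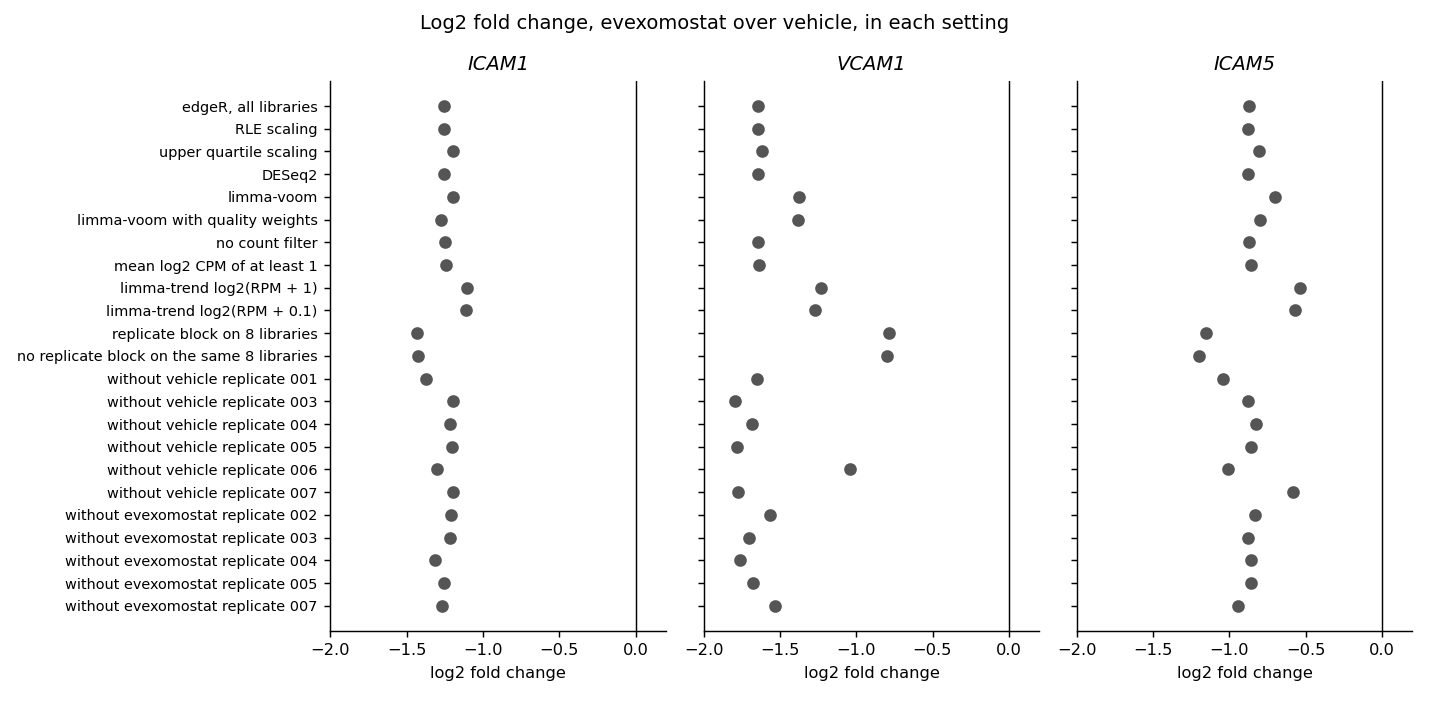
Log2 fold change of ICAM1, VCAM1 and ICAM5 under each of 23 settings, 1 row per setting. ICAM1 lies between -1.44 and -1.10, while VCAM1 lies between -1.79 and -0.79 and nearest 0 in the rows without vehicle replicate 006.

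Of 23 listed molecules that the 10 proteins bind, 17 were tested, 8 were below 0 and 9 above, and the median log2 fold change was 0.01. With edgeR 0 of them passed the threshold and 2 had an unadjusted p under 0.05, DESeq2 called 0, and limma-voom with quality weights called 2. Over all 16653 genes tested, 2225 had an unadjusted p under 0.05 with edgeR. DESeq2 called 649 of all genes and limma-voom with quality weights 1059. ITGB1, the integrin chain that pairs with ITGA4 to bind VCAM1, was at 346.9 CPM with vehicle and 304.9 CPM with evexomostat. NRP1, a coreceptor that binds L1CAM, was at 64.17 and 58.76 CPM. LAMA4, the laminin chain bound by MCAM, was at 36.91 and 52.32 CPM. The LAMA4 log2 fold change was 0.50, and it was 0.99 without vehicle replicate 006 and 0.32 without vehicle replicate 007. Among 35 other cell adhesion molecules, 25 were tested and 0 passed with edgeR, 13 were below 0 and 12 above, and the median was -0.13. Of this list, 6 had an unadjusted p under 0.05, and DESeq2 and limma-voom with quality weights each called 3. The lowest was NRCAM, a neuronal relative of L1CAM, at 62.48 CPM with vehicle and 22.59 CPM with evexomostat, with a log2 fold change of -1.47 ± 0.47 (SE). BSG and NECTIN2, the other members of that list with high levels, were at 540.7 and 79.5 CPM with vehicle and at 560.9 and 72.74 CPM with evexomostat.

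The genes that act upstream of ICAM1 and VCAM1 were listed as inducers: cytokines, their receptors and the transcription factors they engage. Of 30, 26 passed the count filter, and TNF, LTA, LTB and IFNG did not. 23 of the 26 were below 0, beside 55.4% of all genes tested, and the median was -0.45, beside -0.04 over all genes tested. Of the 26, 13 had an unadjusted p under 0.05 with edgeR, beside 2225 of all 16653 genes tested. IFNGR1, a chain of the interferon gamma receptor, fell from 106.0 ± 15.07 CPM (SD, n = 6) to 67.7 ± 7.933 CPM (SD, n = 5), and its log2 fold change was -0.65 ± 0.13 (SE). RELB, an NF-kB subunit of the alternative pathway, fell from 108.7 ± 7.386 CPM (SD, n = 6) to 69.49 ± 7.476 CPM (SD, n = 5), and its log2 fold change was -0.65 ± 0.11 (SE). These were the 2 inducers past the threshold with edgeR, beside 0.606% of all genes tested. DESeq2 called 7 of the list, limma-voom with quality weights 10 and upper quartile scaling 1, and IFNGR1 lost its call in 14 of 22 other settings and RELB in 6. TNFRSF1A, a TNF receptor, and NFKB2, an NF-kB subunit, were among the inducers with the highest levels, had log2 fold changes of -0.37 and -0.30, and did not pass. The TNFRSF1A log2 fold change was -0.23 without vehicle replicate 006, and the NFKB2 log2 fold change was -0.20 without vehicle replicate 005.

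Of 24 other genes known as NF-kB targets, 23 were tested and 21 were below 0, beside 55.4% of all genes tested. The median log2 fold change of the list was -0.76, beside -0.04 over all genes tested. Of the 23, 12 had an unadjusted p under 0.05 with edgeR. After adjustment 5 passed the threshold, beside 0.606% of all genes tested. The 5 targets that passed all fell: PTGS2, the inducible cyclooxygenase, by 3.56, CCL20, a chemokine, by 2.80, SOD2, the mitochondrial superoxide dismutase, by 1.19, NFKBIZ, a nuclear IkB protein, by 0.95, and BIRC3, an inhibitor of apoptosis, by 0.76 on the log2 scale. The list was put together with results of these data known and is not independent evidence of its direction. DESeq2 called 12 of the list, limma-voom with quality weights 13 and upper quartile scaling 3, and NFKBIZ lost its call in 15 and BIRC3 in 12 of 22 other settings. CCL5 and TNFAIP2, at high levels, had log2 fold changes of -0.82 and -0.32 and did not pass, and the CCL5 log2 fold change was -0.38 without vehicle replicate 001. The 5 NF-kB targets and 2 inducers past the threshold became 0 and 0 without evexomostat replicate 002, 005 or 007, and 10 and 9 without vehicle replicate 001. They were 3 and 1 without vehicle replicate 003, 004, 006 or 007, 2 and 1 without evexomostat replicate 004, and the inducers alone were 0 without evexomostat replicate 003. The sheddases, splicing factors, enzymes and membrane linkers that process or anchor the members had 22 of 22 genes tested and 0 past the threshold with edgeR, 15 below 0 and 7 above, and a median of -0.09. Of these 22, 4 had an unadjusted p under 0.05, DESeq2 called 0, and limma-voom with quality weights called 2. Of all 16653 genes tested, 55.4% were below 0 and 2225 had an unadjusted p under 0.05 with edgeR. ACTN4, MSN and EZR, which tie such receptors to actin, were at 584.1, 422 and 351.3 CPM with vehicle and at 629.4, 416.2 and 305 CPM with evexomostat.

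**Figure D4:**
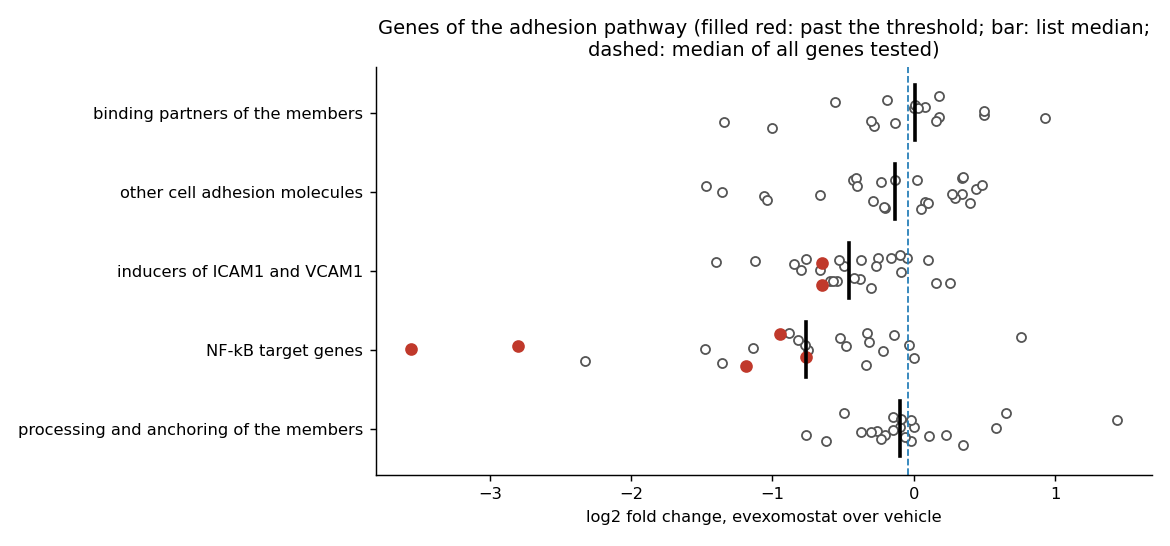
Log2 fold changes of the genes tested in each of 5 lists, with 1 point per gene, genes past the threshold in red, a bar at each list's median and a dashed line at the median of all genes tested. The inducers and the NF-kB targets lie mostly below 0, with medians of -0.45 and -0.76, while 8 binding partners lie below 0 and 9 above.

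Of 64 marker genes tested over all marker lists, 0 passed the threshold with edgeR and 11 had an unadjusted p under 0.05, 6 of them skeletal muscle genes. Over all 16653 genes tested, 2225 had an unadjusted p under 0.05. The leukocyte markers summed to 94.6 to 163 RPM with vehicle and 101 to 123 RPM with evexomostat. Most of this was CD68, LCP1 and LYZ, at means of 38.8, 34.6 and 27.7 RPM. CD3E, the T cell marker, was at 0 in all libraries, and PTPRC, carried by nearly all leukocytes, averaged 2.22 RPM. The remaining leukocyte markers averaged from 0.124 RPM for CD79A to 7.45 RPM for CORO1A. Fibroblast and pericyte markers summed to 424 to 2090 RPM with vehicle and 530 to 1160 RPM with evexomostat. Most of this was COL3A1 and COL1A1, at means of 596 and 167 RPM. COL1A2, PDGFRB and FAP averaged 20.4 to 43.4 RPM, and DCN, LUM, PDGFRA, ACTA2 and RGS5 averaged 0.39 to 4.13 RPM. Skeletal muscle markers summed to as much as 496 RPM in evexomostat replicate 005 and at most 20.6 RPM with vehicle. That list was split: the highest library values of ACTA1, MYH1, MYH2, MYH4 and TNNC2 were 73.5 to 147 RPM. TTN reached 12.1 RPM, and CKM, MYLPF, TNNT3 and MB stayed at or below 0.877 RPM in every library. The part of these marker lists in the members' values was not tested.

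Relations among the 10 genes were examined within the treatments, on log2 CPM after the group means were removed, over all 11 libraries. Of 45 pairs, 5 had an unadjusted p under 0.05 in an exact two-sided permutation test within groups of Pearson's r, and 0 did after Benjamini-Hochberg adjustment over the 45. Spearman's rho gave 4 and 0. ICAM1 and ICAM5 had r = 0.87 (exact permutation p = 0.00825, adjusted 0.371) and rho = 0.81 (p = 0.0263, adjusted 0.377). Without the 2 libraries farthest from the median of ICAM1, vehicle replicates 001 and 006, r was 0.17. Leaving them out also narrows the range of ICAM1, so a low r without them cannot decide whether a relation rested on them. ICAM1 and CD47 had r = -0.87 (exact permutation p = 0.018, adjusted 0.399) and rho = -0.74 (p = 0.039, adjusted 0.377), and r was -0.05 without the same 2 libraries. Without vehicle replicate 001 alone, ICAM1 and ICAM5 had r = 0.71 (exact permutation p = 0.0532) and ICAM1 and CD47 had r = -0.48 (exact permutation p = 0.248), and 0 of the 45 pairs had an unadjusted p under 0.05.

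**Figure D5:**
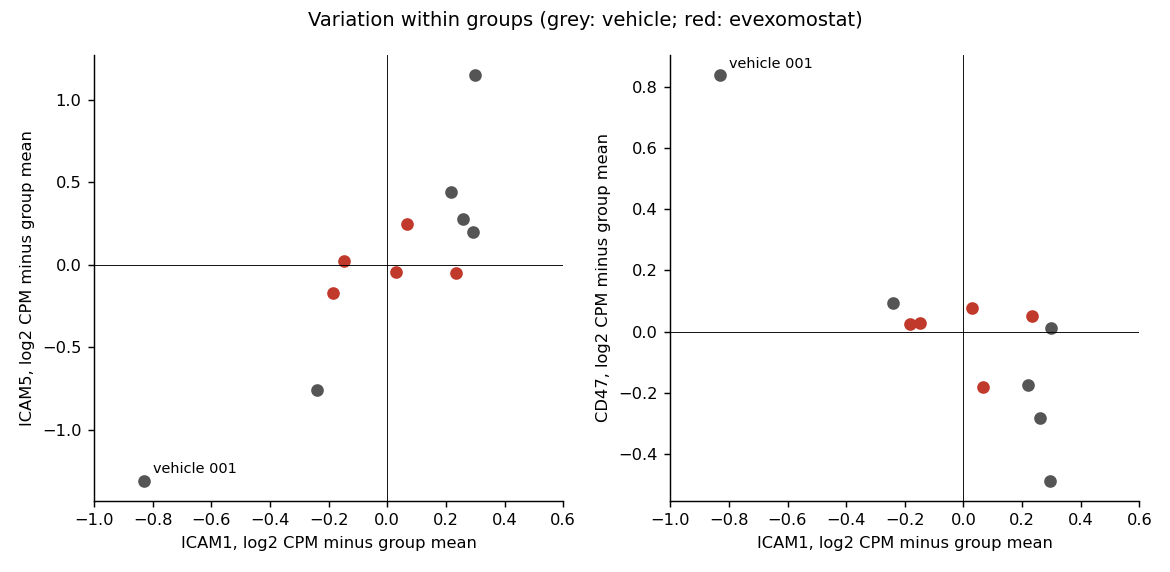
Log2 CPM of ICAM5 and of CD47 against that of ICAM1 after the mean of each group was removed, 1 point per library. Vehicle replicate 001 lies at the far left of both panels, and without the 2 libraries farthest from the ICAM1 median r moves from 0.87 to 0.17 for ICAM5 and from -0.87 to -0.05 for CD47.

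The genes whose pattern was most like that of ICAM1 over the 11 libraries, by Pearson's r of log2 CPM among genes with a mean log2 CPM of at least 1, were PTGS2 at 0.98, STARD4 at 0.97, CAST at 0.97, TNIP1 at 0.96, CHST2 at 0.96, RYBP at 0.95, LINC02015 at 0.94 and C5orf24 at 0.94. With group means removed and vehicle replicate 001 left out, their r ran from 0.44 for CAST to 0.83 for STARD4, with PTGS2 at 0.74. All these values describe likeness only. The points share the treatment difference, the library totals and the scaling.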

How the data were processed

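Groups and replicate numbers were taken from the sample titles, and table columns were matched through the codes in the sample descriptions. The authors deposited a table of whole-number read counts per gene symbol, without normalisation, and a table of RPM values, in which each count is scaled to the total of its library. The deposited comparison table of the authors gives each gene a p-value, with and without adjustment, and the log2 of its fold change. Per the submitters' processing notes, bcl2fastq 2.17, STAR 2.7.5c, featureCounts, Subread, edgeR and GRCh37/hg19 were used. Strand use, annotation version and handling of mouse reads are not given in the sources used here. RefSeq promoter windows are from GRCh38.p14 and were read by symbol.

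Counts were filtered with filterByExpr, scaled with TMM and fitted over all 16653 genes with edgeR's quasi-likelihood test without covariates. Calls used a Benjamini-Hochberg adjusted p of 0.05. The SE of a log2 fold change was taken from the F statistic. A count of 3 equals 0.0764 to 0.132 RPM in these libraries, for counting error only. No 2 libraries agreed within sampling noise: the lowest chi-square per degree of freedom was 16.4. The test scripts were tested on simulated data. Exon lengths per kilobase came from GENCODE 29. Named genes were all members, per list those past the threshold (at most 6 by size) and the 3 with the highest mean CPM, and the 8 genes most like ICAM1 in each of 2 ways. 1 gene that this rule names is not reported here. The members, lists and rules were chosen with earlier results of these data known. Alternatives were upper quartile factors, relative log expression factors, no filter, a mean log2 CPM of at least 1, limma-voom (also with quality weights), DESeq2, limma-trend on log2(RPM + 0.1) or log2(RPM + 1), a replicate block, and leaving out each library. Relations without vehicle replicate 001 and on log2(RPM + 1) were added after seeing the data.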

Additional observations from a re-analysis of the deposited data

Results flagged for a closer look

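In 64 groups of single genes, 6 held a library whose gap to the nearest other exceeded Dixon's 95% critical value for the range of its group, where chance alone would give 3.2. VCAM1 reached 157 CPM in vehicle replicate 006, with 27.0 to 55.6 CPM in the other vehicle libraries, and LAMA4 was at 90.1 CPM in the same library, against 12.1 to 38.1 CPM. CD47 reached 237 CPM in vehicle replicate 001, where the rest held 94.5 to 141 CPM, and at 86.4 CPM in evexomostat replicate 007, against 99.5 to 103 CPM. ICAM4 reached 2.38 CPM in vehicle replicate 001, where the others held 0.812 to 1.29 CPM. RELB was at 82.5 CPM in evexomostat replicate 004, against 64.1 to 69.0 CPM. Causes were not tested.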

How the results depend on the processing

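With edgeR, 101 genes passed the threshold, 29 higher and 72 lower, 1 of them a member. DESeq2 called 649 (200 higher, 449 lower, 2 members) and limma-voom with quality weights 1059 (384 higher, 675 lower, 2 members). Upper quartile scaling left 42 lower calls. There were 30 with log2(RPM + 0.1), where 0 members passed, and 31 with log2(RPM + 1). The share of higher calls in edgeR was 28.7% with TMM and 40% with upper quartile scaling. In limma-voom, which also used TMM, it was 36%. It was 58.1% and 55.9% with limma-trend on the 2 RPM scales, where test and scale changed together. The median of all genes was -0.04 with edgeR, 0.006 with limma-voom, and 0.08 and 0.10 in the limma-trend fits. Leaving out 1 library gave 1 to 865 genes, 1 to 328 higher, 0 to 537 lower and 0 to 2 members, with the most without vehicle replicate 001 and 2, 1 and 3 genes without evexomostat replicates 002, 005 and 007. The cause was not tested.

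The labels do not say whether replicate numbers pair tumours. Deviations of the 4 shared numbers correlated at -0.27, 0.07, 0.05 and -0.10. Unmatched numbers were not compared, so these values cannot decide whether tumours were paired. A replicate block on these 8 libraries gave 107 genes (24 higher, 83 lower, 1 member, 0 inducers and 3 NF-kB targets), and no block on the same 8 gave 733 (225 higher, 508 lower, 2 members). Some values changed sign, none of them past the threshold. The ICAM3 log2 fold change was 0.035 with upper quartile scaling, 0.0006 with limma-voom, 0.0649 with quality weights, 0.002 with a mean log2 CPM of at least 1, 0.0816 and 0.0882 with the RPM scales at 1 and 0.1, 0.178 with the replicate block and 0.1841 without it, and -0.0529 to 0.0651 leaving out 1 library. The MSN log2 fold change was 0.0244 with upper quartile scaling, 0.0077 with limma-voom, 0.0987 and 0.0991 with the RPM scales, and -0.1363 to 0.0855 leaving out 1 library. The L1CAM log2 fold change was -0.0185 with the block and -0.0705 without, and the ACTN4 log2 fold change was -0.1882 and -0.1638, with -0.0301 to 0.228 leaving out 1 library. The LAMA4 log2 fold change was 1.21 with the replicate block. The NRP1 log2 fold change was -0.1871 to 0.0317 leaving out 1 library.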

Other observations

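Once group means were removed, the genes most like ICAM1 over the 11 libraries were SH2B3 at r = 0.99 and MARK2 at 0.96, with FRMD8, YY1AP1, KDM2A, MEF2D, ALKBH5 and RAVER1 at 0.95. Without vehicle replicate 001 these values lay lower, and that of SH2B3 was 0.96. RAVER1 lies between ICAM5 and ICAM3 in RefSeq gene order.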
